A study of Mus musculus with 20 samples.

Results

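The transcripts described here encode 10 amino acid carriers, *Slc7a5*, *Slc3a2*, *Slc7a8*, *Slc7a11*, *Slc7a1*, *Slc38a1*, *Slc38a2*, *Slc38a3*, *Slc1a4* and *Slc1a5*, out of 17211 genes measured by RNA sequencing of mouse brains. They were chosen by gene name, around the carrier that brings tryptophan into the brain and its relatives, at a time when the comparison of the genotypes in these data was already known. Their differences between genotypes are therefore given as a description. Where carriers called by a fit across all genes are counted in that comparison, the count is printed beside that of all genes and supports nothing. Expression is given as counts-per-million (CPM), which divides the reads of a gene by those of all listed genes in its sample and brings every sample to a common sum. The study sequenced the brains of *Winnie* mice, in which a missense mutation of *Muc2*, a mucin gene, leads to chronic colitis without any treatment, and of C57BL/6 mice without that mutation from the same colony. There were 10 brains from C57BL/6 mice and 10 *Winnie* mouse brains, all from untreated mice aged 14 weeks, and each genotype had 5 brains labelled female and 5 labelled male. The mutation is carried in every tissue, and the labels name no brain region.

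Each sample held between 16540303 and 23923769 reads, so a single read was worth 0.0418 to 0.0605 CPM. No marker of any of 9 cell types (neurons, astrocytes, oligodendrocytes, microglia, brain endothelium, pericytes with smooth muscle, choroid plexus, meningeal fibroblasts, blood) was at 0 in any brain. *Xist*, transcribed from the inactive X chromosome, and the Y-linked *Ddx3y* went with the sex label in all 10 *Winnie* samples and against it in 9 of 10 C57BL/6 samples, so the sexes were compared in *Winnie* mice alone. The numbers at the end of the labels, after an S, ran from 1 to 10 in C57BL/6 and from 11 to 20 in *Winnie* samples. The labels do not say what these numbers count, and any effect of their order cannot be told apart from genotype. In bulk tissue, fewer cells of a type and less RNA per cell cannot be told apart either.

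Amino acids cross cell membranes through families of solute carriers. *Slc7a5*, *Slc7a8* and *Slc7a11* encode light chains, the part of a heteromeric carrier that moves the amino acid, and each is held at the cell surface by the heavy chain that *Slc3a2* encodes. At the blood-brain barrier the *Slc7a5* product exchanges large neutral amino acids such as tryptophan, leucine and phenylalanine, which compete for it. When cells lack amino acids, the transcription factor Atf4 is known to induce several of these carriers, and leucine entering the cell activates the growth kinase complex mTORC1.

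The element to which Atf4 binds together with C/EBP factors, TGATGNAA, was looked for on both strands of RefSeq promoter windows (GRCm38.p6), each reaching from 250 bases before to 50 bases after a gene's start. It was present in 3.97% of 32851 windows. Windows were matched for 6 of the 10 carriers (7 windows). *Slc7a5*, *Slc38a1*, *Slc38a3* and *Slc1a5* had no matched window and were not searched. Of the searched windows, those of *Slc7a11* and *Slc1a4* held the element. The *Slc7a11* window held it on both strands, with its first base, as printed, at 66 and 47 bases before the start. In the *Slc1a4* window its first base lay 4 bases before the start, so the element ran across the start. The E-box CACGTG was in 7.15% of all windows and in 0 of these 7. The stretches of 130 bases around these matches are printed to show how they lie, from chr3:50443604-50443733 and chr11:20332704-20332833, minus strand, with the element in capitals.
Slc7a11: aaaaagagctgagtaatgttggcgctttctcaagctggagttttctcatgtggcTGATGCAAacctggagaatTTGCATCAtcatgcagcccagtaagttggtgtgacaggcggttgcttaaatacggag
Slc1a4: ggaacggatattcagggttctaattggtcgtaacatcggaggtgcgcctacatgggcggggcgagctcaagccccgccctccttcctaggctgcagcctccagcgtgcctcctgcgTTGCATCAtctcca
These matches describe letters in the genome, and binding was not measured. The log2 fold changes of these carriers between genotypes were -0.046 for *Slc7a11* and -0.0024 for *Slc1a4*.

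*Slc7a5* (ENSMUSG00000040010, chr8:121881150-121907694 of GRCm38) was the carrier with the largest difference between the genotypes. Its expression in the brains of C57BL/6 mice was lowest at 65.2 CPM, had a median of 73.1 CPM and reached 85.2 CPM. In *Winnie* mouse brains it ran from 85.6 CPM through a median of 90.5 CPM to 98.0 CPM. Every *Winnie* brain was therefore above every C57BL/6 brain, although the lowest of the former and the highest of the latter lay close together. The means were 90.5 ± 3.85 CPM (SD, n = 10) and 74.6 ± 6.15 CPM (SD, n = 10). The log2 fold change, fitted with limma on log2(CPM + 0.5) and given as *Winnie* minus C57BL/6, was 0.28 (SE 0.042, 95% interval 0.19 to 0.37), a level 21.5% higher. The values rest on 1175 to 1862 reads per brain. *Gm20388* overlaps *Slc7a5* on the opposite strand but shares 0 exonic bases with it.

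*Slc3a2* (ENSMUSG00000010095, chr19:8706882-8723369), the heavy chain, differed less. It ranged from 108 to 119 CPM with a median of 114 CPM in C57BL/6 and from 115 to 129 CPM with a median of 119 CPM in *Winnie* brains. All 10 *Winnie* brains were above the C57BL/6 median, but 5 of them lay within the C57BL/6 range. The log2 fold change was 0.073 (SE 0.032, 95% interval 0.0081 to 0.14).

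*Slc7a8* (ENSMUSG00000022180, chr14:54722209-54781946) encodes a light chain with a wider choice of neutral amino acids than that of *Slc7a5*. It ranged from 97.5 to 123 CPM with a median of 107 CPM in C57BL/6 and from 107 to 132 CPM with a median of 122 CPM in *Winnie* brains. The groups overlapped, with 5 *Winnie* brains above the highest C57BL/6 brain. The log2 fold change was 0.15 (SE 0.046, 95% interval 0.057 to 0.24).

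*Slc7a11* (ENSMUSG00000027737, chr3:49892526-50443614) encodes the light chain that takes up cystine in exchange for glutamate. It varied more among brains than any other of the 10 carriers except the barely expressed *Slc1a5* in C57BL/6, from 41.3 to 60.9 CPM in C57BL/6 (median 44.9 CPM) and from 33.5 to 56.7 CPM in *Winnie* brains (median 46.6 CPM). The coefficient of variation was 14.4% in C57BL/6 and 16.9% in *Winnie* brains, against 3.35% from counting alone. The ranges overlapped in part, and the log2 fold change was -0.046 (SE 0.096, 95% interval -0.25 to 0.15). It overlaps 5 other annotated genes and shares 0 exonic bases with them.

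**Figure D1:**
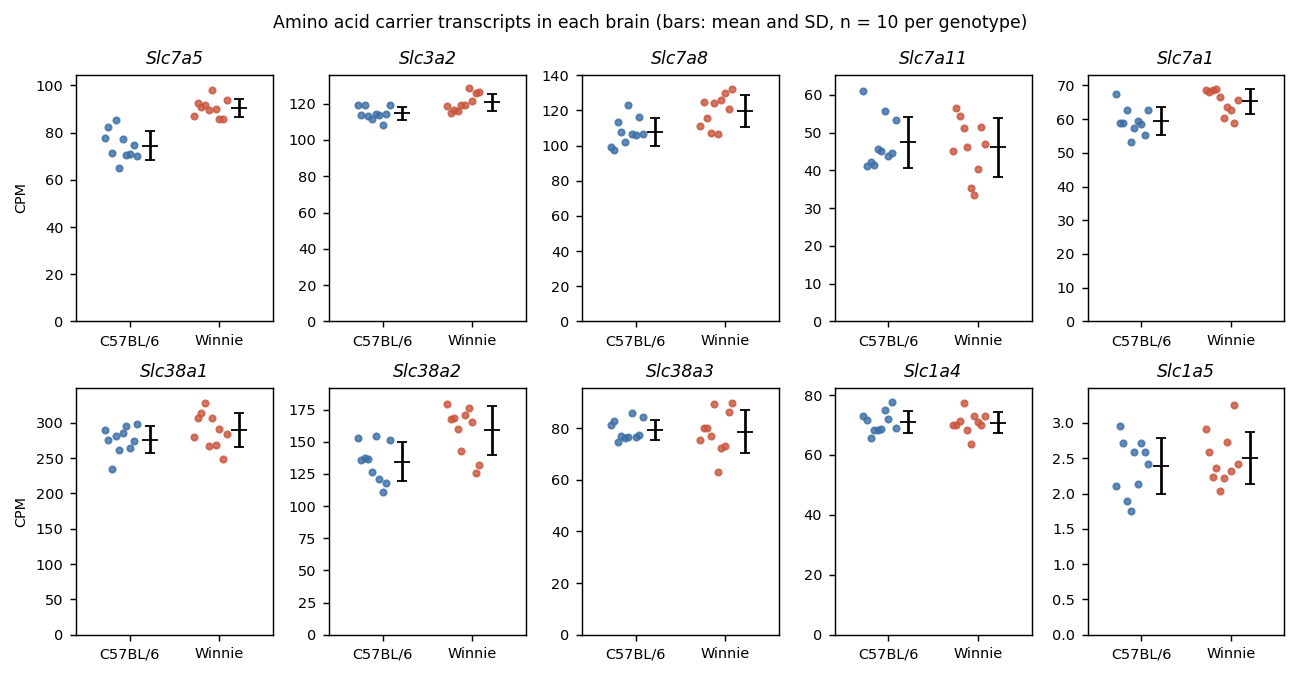
Each point is the CPM of a carrier in a single brain, for 10 C57BL/6 (blue) and 10 *Winnie* (red) mice, and the bars give the mean and SD. The *Slc7a5* points of the genotypes do not overlap (at most 85.2 CPM in C57BL/6, at least 85.6 CPM in *Winnie*), while the other 9 carriers overlap.

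The cationic carrier *Slc7a1* (ENSMUSG00000041313, chr5:148327410-148399904) moves arginine and lysine and needs no heavy chain. Its values ran from 53.1 to 67.5 CPM (median 58.8 CPM) in C57BL/6 and from 58.9 to 68.9 CPM (median 66.1 CPM) in *Winnie* brains. All 10 *Winnie* brains were above the C57BL/6 median and 4 were above the C57BL/6 maximum. The log2 fold change was 0.13 (SE 0.042, 95% interval 0.048 to 0.22).

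Of the sodium-coupled neutral carriers, *Slc38a2* (ENSMUSG00000022462, chr15:96687392-96699730) differed most. Its product takes up alanine and glutamine, and its gene is known to be induced when amino acids run short. In C57BL/6 it ranged from 111 to 155 CPM (median 136 CPM) and in *Winnie* brains from 125 to 179 CPM (median 167 CPM). Of the *Winnie* brains 7 lay above the highest C57BL/6 brain, and the other 3 lay within the C57BL/6 range. The mean was 135 ± 15.3 CPM in C57BL/6 brains and 159 ± 18.8 CPM in *Winnie* brains (SD, n = 10 each), with a log2 fold change of 0.24 (SE 0.071, 95% interval 0.092 to 0.38).

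Its neighbour *Slc38a1* (ENSMUSG00000023169, chr15:96571418-96642913), which supplies neurons with glutamine, had the most reads of the 10 carriers. It ranged from 235 to 299 CPM (median 279 CPM) in C57BL/6 and from 248 to 328 CPM (median 288 CPM) in *Winnie* brains, with a log2 fold change of 0.067 (SE 0.047, 95% interval -0.028 to 0.16). *Slc38a3* (ENSMUSG00000010064, chr9:107650634-107669530), the carrier through which astrocytes release glutamine, spread more widely in *Winnie* brains, from 63.1 to 89.7 CPM, than in C57BL/6, from 74.6 to 85.6 CPM. Its medians were 78.4 and 77.2 CPM, and the log2 fold change was -0.017 (SE 0.050, 95% interval -0.12 to 0.085). Whether the spread itself differed was not tested.

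*Slc1a4* (ENSMUSG00000020142, chr11:20302180-20332713) exchanges alanine, serine and cysteine, and supplies serine to neurons. It was nearly level between the genotypes, at 65.8 to 77.8 CPM (median 70.3 CPM) in C57BL/6 and 63.8 to 77.3 CPM (median 70.5 CPM) in *Winnie* brains. Its log2 fold change was -0.0024 (SE 0.037, 95% interval -0.079 to 0.074), and differences within that interval cannot be told from 0 here. *Slc1a5* (ENSMUSG00000001918, chr7:16781340-16798274), a glutamine exchanger of dividing cells, was barely expressed, at 1.75 to 2.96 CPM in C57BL/6 and 2.04 to 3.26 CPM in *Winnie* brains. Only 34 to 65 reads per brain lay behind these values, and counting alone gives a coefficient of variation of 14.6%, close to the 16.6% and 14.7% seen among C57BL/6 and *Winnie* brains. The 95% interval of its log2 fold change ran from -0.12 to 0.25, and a difference inside it was not detectable at this depth.

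**Figure D2:**
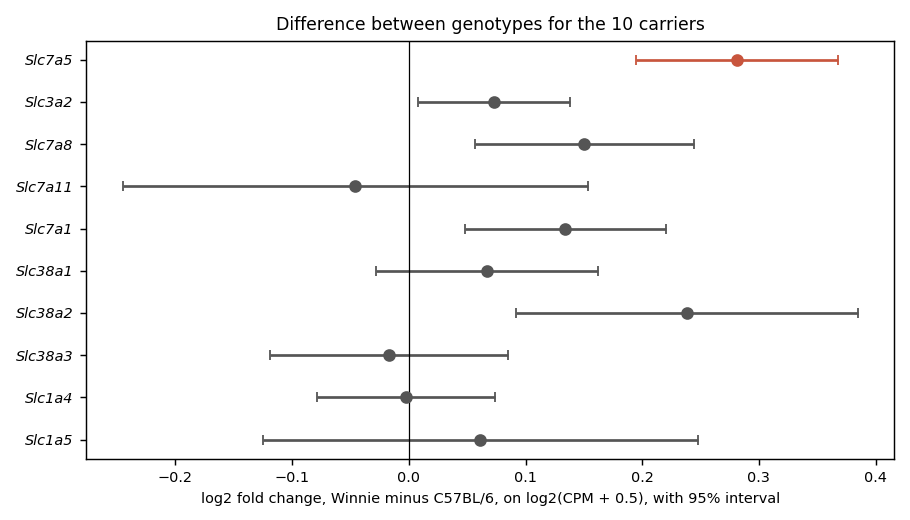
Log2 fold change (*Winnie* minus C57BL/6, on log2(CPM + 0.5)) of each carrier with its 95% interval, 10 brains per genotype, with *Slc7a5* in red. Estimates run from -0.046 for *Slc7a11* to 0.28 for *Slc7a5*, and the intervals of 5 carriers (*Slc7a5*, *Slc3a2*, *Slc7a8*, *Slc7a1* and *Slc38a2*) lie above 0.

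Over the 10 carriers the log2 fold change was above 0 in 7, with a median of 0.070, beside a median of 0.0022 over all 17211 genes. At a false discovery rate (FDR, the Benjamini-Hochberg adjusted p of limma over all genes) under 0.05, 1 carrier was called, *Slc7a5*, as were 2.52% of all genes. It was higher in *Winnie* brains, as were 1.52% of all genes, while 0 carriers and 1.01% of genes were called lower. At an unadjusted p under 0.05 there were 5 carriers, all higher, beside 17.6% of all genes. At the threshold of the study's methods (FDR under 0.001 and at least 1.5-fold) there were 0 carriers and 0% of genes with limma, and 10 genes in all with DESeq2. Groups that do not overlap were found for 0.0291% of genes, *Slc7a5* and 4 others that were named after their values were seen, *Mthfd1l*, *Calr*, *Mtor* and *Nup214*. Since the carriers were chosen with this comparison known, nothing is read from these counts.

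Levels of different genes were compared as CPM per kilobase of annotated exons (GENCODE M21), which depends on the exons annotated. In C57BL/6 brains *Slc3a2* was highest, at 32.5 ± 1.03 CPM per kb (SD, n = 10), and it exceeded *Slc7a5*, *Slc7a8* and *Slc7a11* in every brain of both genotypes. *Slc7a8* (21.5 ± 1.57 CPM per kb) and *Slc7a5* (20.1 ± 1.66 CPM per kb) followed and did not differ beyond their spread, with *Slc7a8* the higher of the pair in 7 of 10 C57BL/6 and 5 of 10 *Winnie* brains. *Slc1a4* (18.1 ± 0.929 CPM per kb), *Slc38a1* (16.02 ± 1.103 CPM per kb), *Slc38a2* (15.2 ± 1.73 CPM per kb) and *Slc38a3* (15.005 ± 0.732 CPM per kb) came next, each overlapping its neighbour in this order. *Slc7a1* at 5.15 ± 0.354, *Slc7a11* at 3.41 ± 0.490 and *Slc1a5* at 0.573 ± 0.0952 CPM per kb were lower, with no overlap between neighbours in either genotype. *Slc7a5* was above *Slc1a4* in 9 of 10 C57BL/6 and 10 of 10 *Winnie* brains. Among the 17128 genes with a length, *Slc7a5* was above 87.7% and *Slc3a2* above 92.3%, whereas *Slc7a11* was above 45.5% and *Slc1a5* above 15.9%.

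The light chains that pair with *Slc3a2* were then set against each other within each brain, adding *Slc7a6*, *Slc7a7* and *Slc7a10*, which are not among the 10 carriers. In C57BL/6 brains the sum of these 6 light chains, per kb, was made up of *Slc7a8* (30.9 ± 2.03%, SD, n = 10), *Slc7a5* (28.8 ± 1.995%) and *Slc7a10* (27.8 ± 1.66%), with smaller shares of *Slc7a6* (6.84 ± 0.640%), *Slc7a11* (4.88 ± 0.706%) and *Slc7a7* (0.836 ± 0.118%). In *Winnie* brains the share of *Slc7a5* was 32.04 ± 1.56% and that of *Slc7a10*, which moves small amino acids such as glycine and serine, was 24.9%, from 22.3% to 26.4%. The *Slc7a10* share ran from 24.9% to 30.7% in C57BL/6, so its ranges overlapped. A share also falls when another chain rises. The *Slc7a10* level itself was 19.4 ± 1.67 CPM per kb in C57BL/6 and 18.9 ± 1.39 CPM per kb in *Winnie* brains (SD, n = 10 each). Its log2 fold change was -0.035 (limma FDR = 0.775). The *Slc7a5* share ran from 26.0% to 32.9% in C57BL/6 and from 30.1% to 35.5% in *Winnie* brains, so these ranges overlapped although those of its CPM did not. Per kb, *Slc7a5* stood at 0.620 ± 0.0537 of the *Slc3a2* level in C57BL/6 and 0.715 ± 0.0454 in *Winnie* brains. The light chain sum was 2.15 ± 0.0849 and 2.23 ± 0.105 times *Slc3a2*. These ratios use the comparison on which the carriers were chosen and are a description.

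**Figure D3:**
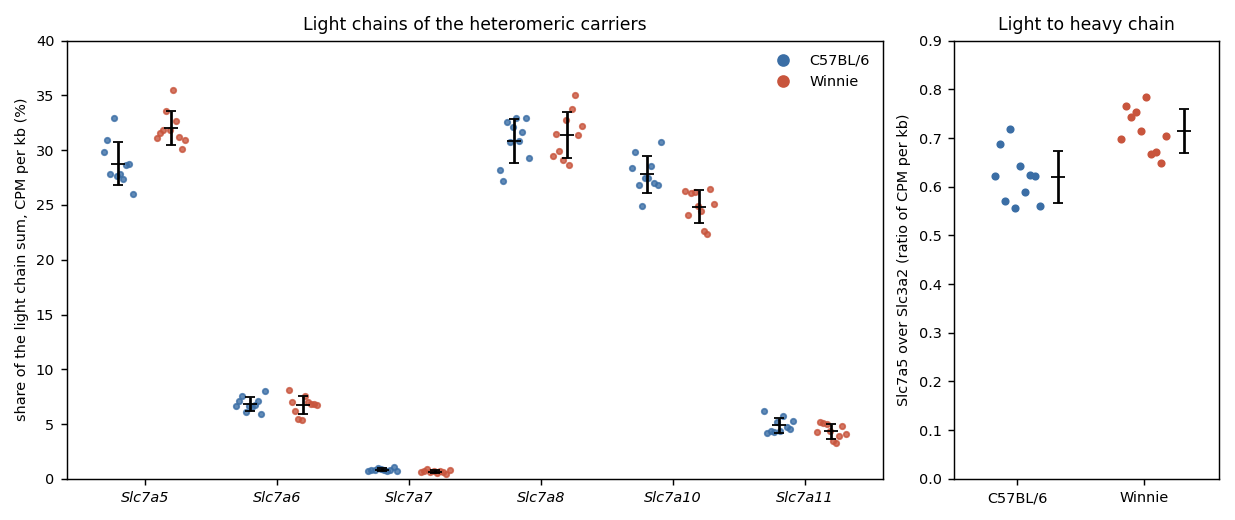
Left, share of each light chain in the sum of 6 light chains (%, from CPM per kb) in each C57BL/6 (blue) and *Winnie* (red) brain. Right, ratio of *Slc7a5* to *Slc3a2* per kb. Bars give mean and SD (n = 10). *Slc7a5* makes up 28.8% of the sum in C57BL/6 and 32.04% in *Winnie* brains.

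Variation among brains of the same genotype is separate from the comparison used to choose the carriers, and it was examined after subtracting the genotype mean from log2(CPM + 0.5). *Slc7a5* did not vary with its heavy chain (Pearson's r = -0.026, permutation p = 0.911, Spearman's rho = -0.056, p = 0.810, n = 20 brains). Leaving out the 2 brains farthest from the *Slc7a5* median gave r = -0.073, and r was 0.084 within C57BL/6 and -0.20 within *Winnie* brains. Of its relations with the other 9 carriers, the strongest was with *Slc38a1*, at r = 0.33 (permutation p = 0.144) and rho = 0.26 (p = 0.260), with r = 0.25 within C57BL/6, 0.54 within *Winnie* and 0.39 without the 2 farthest brains. The Benjamini-Hochberg adjusted p over the 9 relations was 0.831 for this r and 0.855 for this rho, and none was smaller. Across these 9 relations r lay between -0.20 and 0.33. In a limma fit of every other gene on *Slc7a5* with genotype as a covariate, 0 of 17210 genes (0%) passed an FDR under 0.05, the smallest FDR was 0.998, and 627 (3.64%) had an unadjusted p under 0.05, with 0 of the 9 carriers among them.

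The genes whose pattern was most like that of *Slc7a5* are given as a description, by Pearson's r over the 20 brains among 15167 genes with a mean of at least 1 CPM. They were *Sema3g* (r = 0.81), *Bdh1* (0.72), *Wbscr16* (0.70), *Erlin2* (0.70), *C030014I23Rik* (0.70), *Galnt15* (0.70), *Slc16a12* (0.69), *Gldn* (0.68), *Hif3a* (0.67) and *Thoc3* (0.67). For *Sema3g*, r was 0.85 within C57BL/6 and 0.74 within *Winnie* brains, whereas for *Hif3a* it was 0.86 and 0.22. At the other end lay *Sphk2* (-0.75), *Epn2* (-0.73), *Gm12231* (-0.71), *Dimt1* (-0.70) and *Smarce1* (-0.69). These values were picked from the ends of many and rest on shared libraries, and none of these genes passed the fit above.

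Among the 10 carriers themselves there are 45 pairs, with r from -0.46 to 0.64, a median of 0.044 and 23 pairs above 0. Only 2 pairs reached r of 0.5. *Slc7a11* and *Slc38a3* had r = 0.64, with 0.65 within C57BL/6 and 0.65 within *Winnie* brains, and *Slc7a11* and *Slc7a1* had r = 0.50, with 0.54 and 0.49. The lowest was *Slc38a2* with *Slc38a3*, at -0.46 over all brains, 0.16 within C57BL/6 and -0.75 within *Winnie* brains. *Slc3a2* with *Slc38a1* had r = -0.40 over all brains, 0.091 within C57BL/6 and -0.73 within *Winnie* brains. Whether such correlations differ between genotypes was not tested.

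Set beside the summed CPM of markers of 9 cell types in the same brains, *Slc7a5* stood out with none, with r from -0.27 (choroid plexus) to 0.16 (brain endothelium). A sum mostly follows its most abundant marker. In C57BL/6 brains *Ttr* averaged 803 CPM beside a median choroid plexus sum of 911 CPM, and *Igf2* 101 CPM beside 174 CPM for meningeal fibroblasts. *Slc7a5* had r = -0.30 with *Ttr*, and from -0.025 (*Clic6*) to 0.14 (*Folr1*) with the other choroid plexus markers. Of the 90 values of r over the 10 carriers, 7 were at least 0.5 and 4 were at most -0.5. *Slc7a11* went with meningeal fibroblast markers (r = 0.66, with 0.51 within C57BL/6 and 0.81 within *Winnie* brains) and against neuron markers (r = -0.61, with -0.69 and -0.60). *Slc38a3* had r of at least 0.5 with 4 lists, the choroid plexus (0.66, with -0.0033 within C57BL/6 and 0.80 within *Winnie* brains), meningeal fibroblast (0.59), microglia (0.54) and pericyte and smooth muscle (0.54) markers. It went against neuron markers (r = -0.62, with -0.92 within C57BL/6 and -0.63 within *Winnie* brains). *Slc38a2* went against microglia markers (r = -0.69, with -0.37 and -0.89). The others past 0.5 in size were *Slc3a2* with blood (0.54, with 0.16 and 0.71), *Slc7a11* with blood (-0.54, with -0.22 and -0.68) and *Slc38a1* with meningeal fibroblast markers (0.52, with 0.90 and 0.18). Without the 2 brains farthest from the marker median, these last values of r were 0.40, -0.37 and 0.27. Those of *Slc38a3* with choroid plexus (0.39) and microglia (0.41) and of *Slc38a2* with microglia (-0.49) also came under 0.5 in size. All of these r are over 20 brains and share libraries and depth, and what they owe to the composition of the tissue pieces was not tested.

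**Figure D4:**
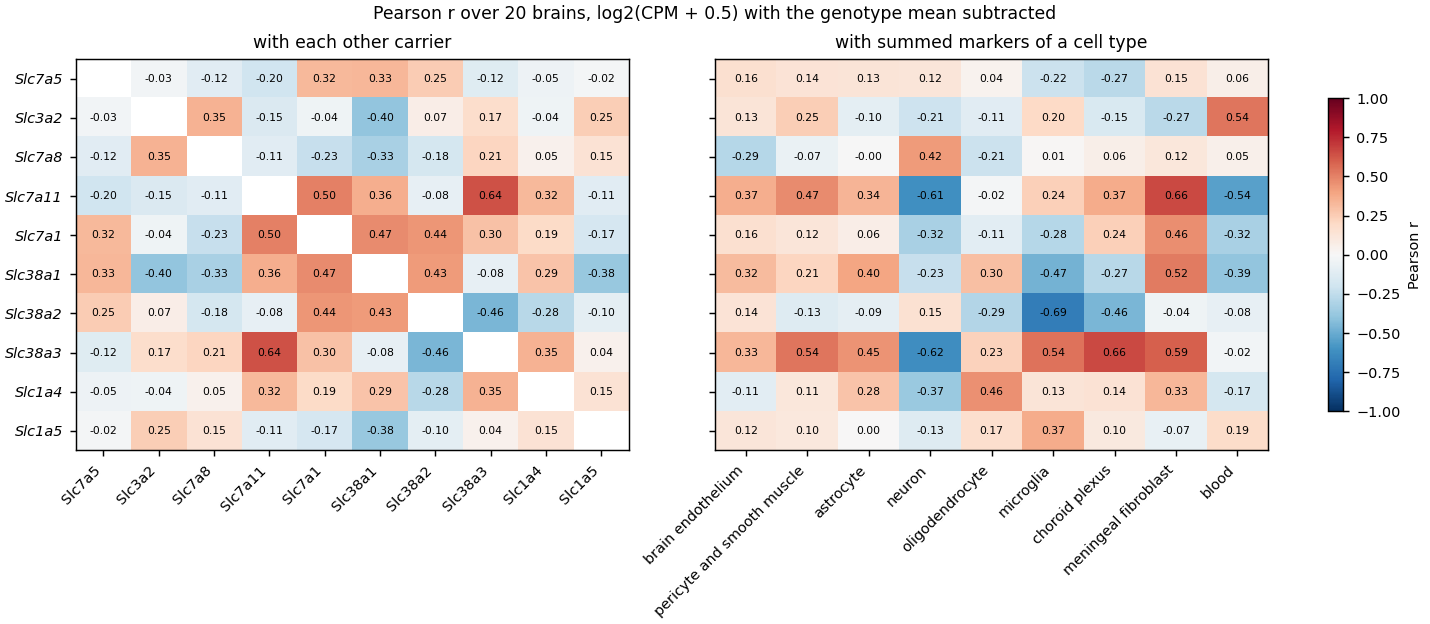
Pearson's r over 20 brains of each carrier (rows) with each other carrier (left) and with the summed CPM of markers of 9 cell types (right), on log2(CPM + 0.5) with the genotype mean subtracted. The *Slc7a5* row holds values between -0.27 and 0.33, and the highest pair on the left is *Slc7a11* with *Slc38a3* (0.64).

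Labelled sex within *Winnie* mice was the other comparison that had no part in choosing the carriers (5 labelled female, 5 labelled male). With limma 0 of the 10 carriers and 0.116% of all genes passed an FDR under 0.05, and 2 carriers and 9.81% of genes had an unadjusted p under 0.05. edgeR on the recovered reads also gave 0 carriers. *Slc7a5* was 90.3 ± 2.21 CPM (SD, n = 5) in brains labelled female and 90.7 ± 5.33 CPM (SD, n = 5) in those labelled male, a log2 fold change of 0.0043 (95% interval -0.11 to 0.11, male minus female). The carriers under an unadjusted p of 0.05 were *Slc7a1* and *Slc7a11*, both lower in males. *Slc7a1* was 66.7 to 68.9 CPM in the 5 females and 58.9 to 65.6 CPM in the 5 males. These ranges did not overlap, as was the case for 1.95% of all genes and for no other of the 10 carriers, and the log2 fold change was -0.13 (SE 0.051, limma FDR = 0.377). *Slc7a11* was 45.1 to 56.7 CPM in females and 33.5 to 51.6 CPM in males, with overlap and a log2 fold change of -0.30 (SE 0.11, limma FDR = 0.377). The heavy chain *Slc3a2* was 117 ± 1.85 CPM (SD, n = 5) in females and 124 ± 3.88 CPM (SD, n = 5) in males, with a limma FDR of 0.599. The numbers at the end of the labels ran from 11 to 15 in females and from 16 to 20 in males, so any effect of their order cannot be told apart from sex.

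**Figure D5:**
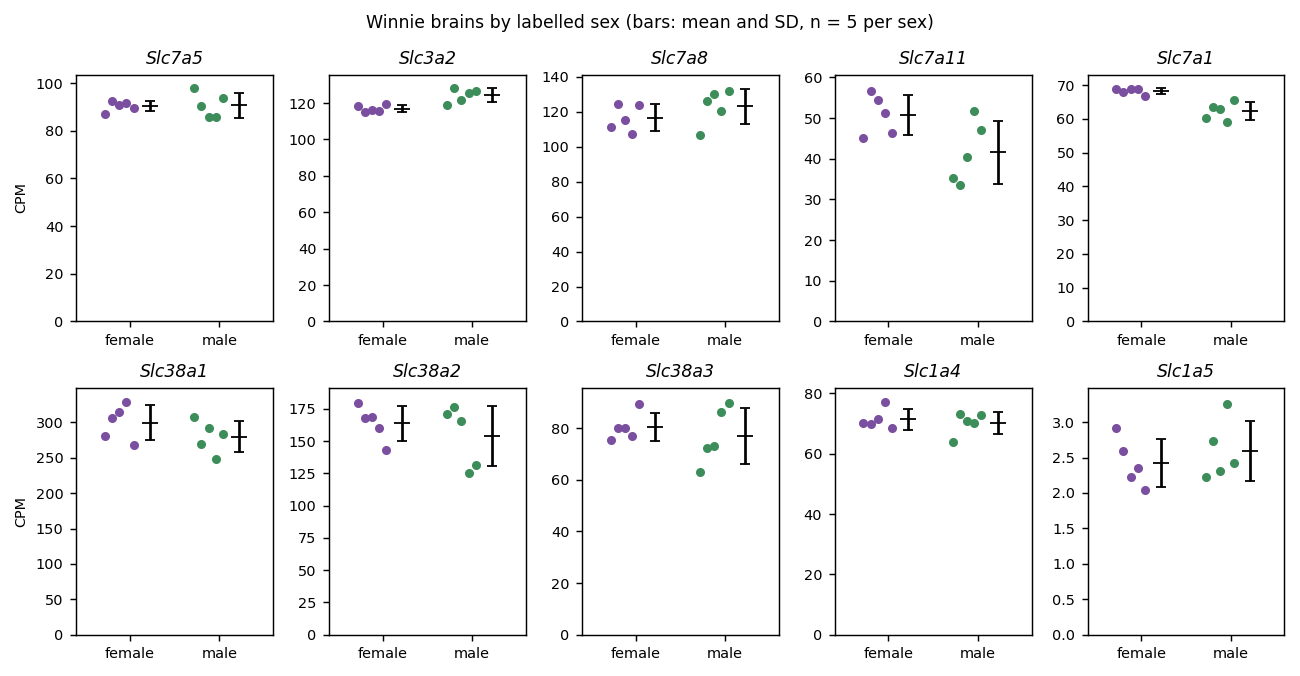
CPM of each carrier in the *Winnie* brains labelled female (purple) and male (green), 5 each, with mean and SD. The *Slc7a1* points do not overlap (66.7 to 68.9 CPM and 58.9 to 65.6 CPM), as for 1.95% of all genes, and its limma FDR is 0.377, while the *Slc7a5* means are 90.3 and 90.7 CPM.

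Other carriers of amino acids were compared between genotypes to place the 10. Over all genes 17.6% had an unadjusted p under 0.05 and 2.52% passed an FDR under 0.05 with limma, beside which the list counts below stand. Of 28 other carriers of the plasma membrane (12 more of the list were not analysed here), 0 passed an FDR under 0.05 with limma, 6 had an unadjusted p under 0.05, all higher, and edgeR called 1, voom 1 and DESeq2 3. Their median log2 fold change was 0.077, beside 0.070 for the 10 carriers, with *Slc6a20a* (proline, 0.20, FDR = 0.125) and *Slc6a5* (glycine, -0.21, FDR = 0.880) at the ends. Of 13 carriers of lysosomes and mitochondria, 0 passed with limma, 1 had an unadjusted p under 0.05 and DESeq2 called 1, and the median was 0.030.

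The response to amino acid shortage was represented by *Atf4* and its targets. Of these 30 genes 0 passed an FDR under 0.05 with limma, edgeR, voom or DESeq2, and 8 had an unadjusted p under 0.05, of which 2 were higher and 6 lower. Their median log2 fold change was -0.0080, with *Trib3* at 0.22 (FDR = 0.403) and *Cebpb* at -0.27 (FDR = 0.255) at the ends. Of 7 genes for eIF2 alpha (*Eif2s1*), its kinases and its phosphatase subunits, which set the translation of Atf4, 0 passed and 0 had an unadjusted p under 0.05. Beside the median of -0.0080, *Slc7a5*, *Slc38a2*, *Slc7a11* and *Slc3a2*, which are among the carriers Atf4 is known to induce, stood at log2 fold changes of 0.28, 0.24, -0.046 and 0.073. The other carriers stood at 0.15 (*Slc7a8*), 0.13 (*Slc7a1*), 0.067 (*Slc38a1*), 0.061 (*Slc1a5*), -0.0024 (*Slc1a4*) and -0.017 (*Slc38a3*). These other carriers were not sorted by whether Atf4 induces them. Of 34 genes of mTORC1 and its amino acid sensors, 12 had an unadjusted p under 0.05, 10 of them higher and 2 lower. At an FDR under 0.05, 2 rose and 0 fell, with a list median of 0.0096. The risers were the kinase *Mtor* (log2 fold change 0.16, FDR = 0.0157) and its inhibitor *Tsc2* (0.11, FDR = 0.0360). The *Tsc2* call, and with it the count of 2, was lost when any one of 10 samples was left out (C57BL/6 replicates 3, 5, 7, 8 and 9, *Winnie* replicates 2, 3, 7, 8 and 10).

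*Slc7a5* is strongly expressed in brain endothelium, so genes of that cell were set beside it. Of 12 other nutrient carriers of brain endothelium 6 had an unadjusted p under 0.05, 5 of them higher and 1 lower. At an FDR under 0.05, 1 rose and 0 fell. The riser was the glucose carrier *Slc2a1*, which averaged 95.6 ± 15.4 CPM in C57BL/6 brains and 130.2 ± 12.3 CPM in *Winnie* brains (SD, n = 10 each, log2 fold change 0.45, FDR = 0.00551). The median of the list was 0.13. Among 10 endothelial markers the tight junction gene *Cldn5* fell, by 0.47 on the log2 scale (FDR = 0.00331), and the median was 0.015, with summed marker levels of 198 to 257 CPM in C57BL/6 and 196 to 246 CPM in *Winnie* brains. After subtracting the genotype means, *Slc7a5* had r = 0.61 (rho = 0.64, n = 20) with *Slc2a1*, 0.76 within C57BL/6 but 0.15 within *Winnie* brains, and r = -0.058 with *Cldn5*. Over the other 8 marker lists 2 genes passed, both higher, the pericyte gene *Abcc9* (log2 fold change 0.29, FDR = 0.0468) and the astrocyte gene *Gjb6* (0.22, FDR = 0.0384), whose calls were lost when any one of 14 and of 11 samples was left out. The summed pericyte and smooth muscle markers ranged from 180 to 219 CPM in C57BL/6 and from 189 to 224 CPM in *Winnie* brains, and the summed astrocyte markers from 2500 to 3096 CPM and from 2732 to 3054 CPM. The part of these cell types in the *Slc7a5* difference was not tested.

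Genes that respond to hormones and to neuronal activity were set beside the carriers as well. Of 15 genes induced by glucocorticoids 11 had an unadjusted p under 0.05, all higher. At an FDR under 0.05, 5 rose and 0 fell, with a median log2 fold change of 0.40 over the list. Only 3 rose at that FDR without C57BL/6 replicate 3, 4, 5, 8 or 9 or *Winnie* replicate 2, 3 or 7. Those named by rule were *Plin4* (1.91, FDR = 0.0163), a coat protein of lipid droplets, the kinase *Sgk1* (0.98, FDR = 0.0374), the sulfotransferase *Sult1a1* (0.67, FDR = 0.0130) and *Tsc22d3* (0.48, FDR = 0.0139). The *Sgk1* call was lost when any one of 12 samples was left out. After subtracting the genotype means, r of *Slc7a5* over 20 brains was 0.39 with *Plin4*, with 0.75 within C57BL/6 and 0.13 within *Winnie* brains. It was 0.25 with *Sgk1* (0.25 and 0.26), 0.26 with *Sult1a1* (0.30 and 0.26) and 0.43 with *Tsc22d3* (0.41 and 0.51). With the rest of this list it lay between -0.26 (*Pdk4*) and 0.47 (*Zbtb16*). Of 10 immediate-early genes 0 passed with limma, 1 had an unadjusted p under 0.05 and DESeq2 called 1. At the ends were *Npas4* (log2 fold change -0.52, FDR = 0.212) and *Nr4a1* (0.15, FDR = 0.868). After subtracting the genotype means, r of *Slc7a5* over 20 brains was -0.61 with *Npas4* and -0.50 with *Nr4a1*. With the other immediate-early genes it lay between -0.53 (*Arc*) and -0.28 (*Fosb*). What these relations reflect was not tested.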

How the data were processed

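Total brain RNA of 10 C57BL/6 and 10 *Winnie* mice had been purified for polyA RNA and sequenced on an MGISEQ-2000RS as paired reads of 100 bases. Per the study's methods, the authors processed reads with RNAsik 1.5.4 on GRCm38, counted them per gene with featureCounts and deposited CPM made with Degust. The strandedness of the counting is not given in the sources used here. The methods give fewer mice than the labels, and all 20 labelled samples were used. Each deposited value was a whole number of reads (within 0.1 read) once divided by the sample's smallest step, and the samples held 16540303 to 23923769 reads. The intervals given for log2 fold changes come from the limma fits and rest on the spread among brains, not on counting error alone. Where nothing ties samples to separate litters or extractions, these intervals and the p-values measure the spread between these samples.

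The carriers, the gene lists and the tests were chosen with earlier results of these data known. Values were compared as log2(CPM + 0.5), with the pseudocount of 0.5 and no filter beyond the deposited table, with limma 3.58.1 (trend and robust) in R 4.3.3. FDR is the Benjamini-Hochberg adjusted p over all 17211 genes. The study's own test, edgeR, was an alternative on recovered reads. Correlations used scipy 1.17.1 in Python 3.11.15, with 100000 two-sided resamples within genotype. The fits were tested on simulated data. Of each list the genes past an FDR under 0.05 were named (at most 4 in each direction, by size), otherwise the largest and the smallest log2 fold change, and of the genes most like *Slc7a5* the 10 highest and 5 lowest by r. Where a list's result is given by its counts and median, no set test was run. Lengths and positions come from GENCODE M21, which matched 17128 genes, and promoter windows from RefSeq. Other settings tried were a pseudocount of 0.1 or of 1 and leaving out genes with a mean under 1 CPM. Scaling by median ratios, normalization by quantiles, and edgeR 4.0.16, DESeq2 1.42.0 and voom on recovered reads were tried too. So were labelled sex or *Ddx3y* as covariates, a replicate block and each sample left out in turn. Since *Xist* and *Ddx3y* went against the label in 9 of 10 C57BL/6 samples, labelled sex as a covariate does not adjust for sex there. An unadjusted p under 0.05 as the call for the lists was added after seeing the data.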

Additional observations from a re-analysis of the deposited data

Results flagged for a closer look

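Each carrier and each other gene named from the lists was checked in each genotype for a brain that lay apart from the other 9, by the gap to its neighbour over the range of the group. Of 84 such groups (42 genes), 7 held a brain apart, and 0 of these were in the 20 groups of the 10 carriers. Chance alone sets a brain apart in about 1 of 20 groups. In *Winnie* brains they were the eIF2 kinase *Eif2ak2* in replicate 4 (9.112 CPM, the others 6.317 to 7.745 CPM), the endothelial *Cldn5* in replicate 6 (15.396 CPM, the others 8.766 to 12.3 CPM) and the collagen gene *Col1a1* in replicate 4 (16.883 CPM, the others 8.21 to 11.937 CPM). In C57BL/6 brains they were *Eif2s1* in replicate 6 (26.719 CPM, the others 30.045 to 33.525 CPM), *Tsc22d3* in replicate 1 (85.479 CPM, the others 43.16 to 64.204 CPM), and *Abcc9* (15.596 CPM, the others 8.222 to 11.776 CPM) and the globin gene *Hbb-bs* (95.105 CPM, the others 48.587 to 61.243 CPM), both in replicate 2. No cause was tested.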

How the results depend on the processing

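The log2 fold change of *Slc7a5* lay between 0.26 and 0.30 over the 11 other settings and the 20 samples left out in turn. The carriers were chosen on this comparison, so their calls carry no weight as support. The number of carriers past that FDR was 1 as reported, 3 with DESeq2, 2 with the replicate block and 1 to 3 with a sample left out. It was 3 without C57BL/6 replicate 1 or 6, and 2 without C57BL/6 replicate 10 or *Winnie* replicate 4, 6, 9 or 10. The carriers added were *Slc38a2* (7 settings), *Slc7a8* (3) and *Slc7a1* (2). Of all genes 434 passed as reported, 968 with DESeq2, 227 with the replicate block and 169 (without C57BL/6 replicate 5) to 694 (without C57BL/6 replicate 10) with a sample left out. It moved by over 1.5 times also without C57BL/6 replicate 3 (238), 8 (250) or 9 (270) and without *Winnie* replicate 2 (264), 3 (241), 7 (256) or 8 (216). At the study's threshold 0 genes passed as reported, 10 with DESeq2 and 0 to 2 with a sample left out (2 without C57BL/6 replicate 2, 1 without C57BL/6 replicate 10 or *Winnie* replicate 9). Of the other plasma membrane carriers 0 passed as reported, 1 with edgeR, voom, labelled sex or *Ddx3y* as a covariate, 3 with DESeq2, 6 at an unadjusted p under 0.05 and 0 to 2 with a sample left out. Of the *Atf4* list 0 passed, and 0 to 1 with a sample left out (1 without C57BL/6 replicate 2). Of the nutrient carriers of endothelium 1 passed as reported, up to 4 (DESeq2) in the other settings, 2 without C57BL/6 replicate 2 or 7 or *Winnie* replicate 1, 4 or 5, and 3 without C57BL/6 replicate 10. Among *Winnie* brains by sex, 20 genes passed as reported and 12 (without replicate 2 or 4) to 67 (without replicate 1) with a sample left out, with 43 without replicate 10. The calls of *Abcc9*, *Gjb6*, *Sgk1* and *Tsc2* were lost without 14, 11, 12 and 10 of the samples in turn (FDR up to 0.0973). Those of *Abcc9*, *Sgk1* and *Tsc2* were also lost with the replicate block, and that of *Abcc9* with edgeR. Of the glucocorticoid-induced genes 5 rose as reported and 3 to 6 with a sample left out. The cause of these changes was not tested. Scaling moved the share of called genes that were higher from 60.14% to 54.63% (median-ratio) or 52.43% (quantile). The replicate numbers did not pair the samples, since 2 of 10 same-numbered pairs had a correlation of deviations over 0.1 (from -0.34 to 0.17). Depth limits *Slc1a5*, with at most 65 reads per brain.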
